A study of Mus musculus with 10 samples.

Results

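Myosin regulatory light chains and kinases of the myosin light chain kinase family were examined in the tibialis anterior, a mostly fast shin muscle. The 4 genes were the light chain genes *Mylpf* and *Myl2* and the kinase genes *Mylk2* and *Mylk4*. They were taken by name from the 3480 genes listed for FoxP1iSkmTg against Control muscle, and all 4 had enough reads to be fitted. They were chosen because they differed in this contrast, so their own values are given as a description, with no test. RNA sequencing of poly-A RNA covered 5 FoxP1iSkmTg and 5 Control mice. FoxP1iSkmTg mice carried FoxP1flSTOP, a Foxp1 transgene silenced by a floxed stop, and HSA-MerCreMer, a Cre recombinase that tamoxifen activates and that the human skeletal alpha-actin promoter drives in muscle fibres. Control mice carried FoxP1flSTOP without Cre. Every mouse was female, 13 to 18 weeks old per the study's methods, and received tamoxifen at 80 mg/kg on 4 days. No group carried MerCreMer without the transgene, so an effect of Foxp1 and an effect of activated Cre cannot be told apart.

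Muscle myosin carries a pair of light chains on the lever arm of each heavy chain, one essential (alkali) and one regulatory. Calcium-bound calmodulin switches on myosin light chain kinase, which phosphorylates a serine near the start of the regulatory chain and so raises the force of later contractions, and myosin phosphatase removes the phosphate. Fast fibres use the regulatory chain encoded by *Mylpf*, while slow fibres and the heart ventricle use the one encoded by *Myl2*.

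The coding starts of the 2 regulatory light chain genes are shown because this stretch encodes the serine that myosin light chain kinase phosphorylates. Another reason is that similar sequences could share reads. Each line holds the first 90 coding bases in a GENCODE M21 transcript of the gene (GRCm38), and capitals mark bases that are identical between them when the whole coding sequences are aligned.
Mylpf: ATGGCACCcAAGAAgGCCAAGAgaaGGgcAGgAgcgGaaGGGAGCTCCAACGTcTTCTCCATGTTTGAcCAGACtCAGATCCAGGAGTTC
Myl2: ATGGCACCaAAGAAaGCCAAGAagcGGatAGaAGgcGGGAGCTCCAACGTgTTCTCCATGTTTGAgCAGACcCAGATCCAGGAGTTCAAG
Over all 498 aligned coding bases, 70.3% were identical. Between the whole transcripts, untranslated ends included, the longest run found in both was 20 bases. For *Mylk2* and *Mylk4*, 70.0% of 1160 aligned coding bases were identical, and the longest run shared by the whole transcripts was 21 bases.

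The targeted gene was higher in every FoxP1iSkmTg mouse. *Foxp1*, a forkhead transcription factor gene, stood at 5352, 2163, 5813, 1423 and 1289 normalized counts (read counts divided by the size factor of the library) in FoxP1iSkmTg replicates 1 to 5, against 371, 232, 390, 270 and 260 in Control replicates 1 to 5. Replicates 1 and 3 carried the most *Foxp1* and replicates 4 and 5 the least among FoxP1iSkmTg mice. *Foxp1* rose by 3.42 ± 0.44 (SE) on the log2 scale (adjusted p = 0.000613 by edgeR's quasi-likelihood fit, as for all adjusted p-values by edgeR that follow), and reads of the transgene and of the endogenous gene were counted together. Of 50 marker genes of other cell types, 3 were listed, namely *Itga7*, *Sdc4* and *Plin1*. *Itga7*, an integrin gene also used by muscle fibres, was higher (log2 fold change 0.71 ± 0.07, adjusted p = 0.000141 by edgeR), and ranged over 2335 to 2891 normalized counts in FoxP1iSkmTg and 1546 to 1818 in Control mice. *Sdc4* and *Plin1* did not pass, and the part of these genes in the results was not tested. *Ckm*, the muscle creatine kinase gene, stood at 155593 to 179968 normalized counts in FoxP1iSkmTg and 181641 to 199704 in Control mice. Each sample thus held this muscle transcript, at 89.8% of the Control mean in FoxP1iSkmTg muscle (adjusted p = 0.214 by edgeR). Other fibre genes stood lower. *Acta1*, the skeletal alpha-actin gene, was at 64.8% of its Control mean (adjusted p = 0.00184 by edgeR). *Myh1*, *Ttn* and *Tnnt3*, also fibre genes, were at 56.4%, 79.3% and 87.4%. The share of different fibre types was not measured, and in whole muscle fewer cells of a type and less RNA per cell cannot be told apart.

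*Mylpf*, the fast regulatory light chain gene (ENSMUSG00000030672; mm10 chromosome 7, 127208890 to 127214298, plus strand), was lower in FoxP1iSkmTg muscle. FoxP1iSkmTg replicates 1 to 5 had 44130, 56855, 53740, 50116 and 55199 normalized counts, against 97624, 100586, 69273, 84453 and 81362 in Control replicates 1 to 5. Every FoxP1iSkmTg mouse lay below every Control mouse, and the lowest Control mouse, replicate 3, was 1.22-fold above the highest FoxP1iSkmTg mouse. The means were 52008 ± 5058 in FoxP1iSkmTg and 86660 ± 12742 in Control muscle (SD, n = 5 each), so that FoxP1iSkmTg muscle held 60.0% of the Control level. The log2 fold change was -0.71 ± 0.10 (SE). Even so, *Mylpf* remained one of the most abundant transcripts, at 2768 ± 268 FPKM (fragments scaled to gene length and library total) in FoxP1iSkmTg and 4615 ± 677 FPKM in Control muscle, the 8th and the 6th highest mean level per length among the 3480 listed genes.

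*Myl2*, the slow and ventricular regulatory light chain gene (ENSMUSG00000013936; mm10 chromosome 5, 122100951 to 122113472, plus strand), moved the other way, from a far lower level. Its normalized counts were 609, 263, 875, 582 and 1014 in FoxP1iSkmTg replicates 1 to 5, against 435, 90.2, 117, 152 and 89.3 in Control replicates 1 to 5. The groups overlapped, because Control replicate 1 stood above FoxP1iSkmTg replicate 2, and the other 4 Control mice lay below all 5 FoxP1iSkmTg mice. The means were 669 ± 290 in FoxP1iSkmTg and 177 ± 147 in Control muscle (SD, n = 5 each), a ratio of 3.78, and the log2 fold change was 1.93 ± 0.46 (SE). Without Control replicate 1 the ratio of means was 5.96 and the log2 fold change 2.59. The sources used here do not say if strand was used in counting, and *Myl2* overlaps *Ccdc63* on the opposite strand, so reads of that gene could be included.

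**Figure D1:**
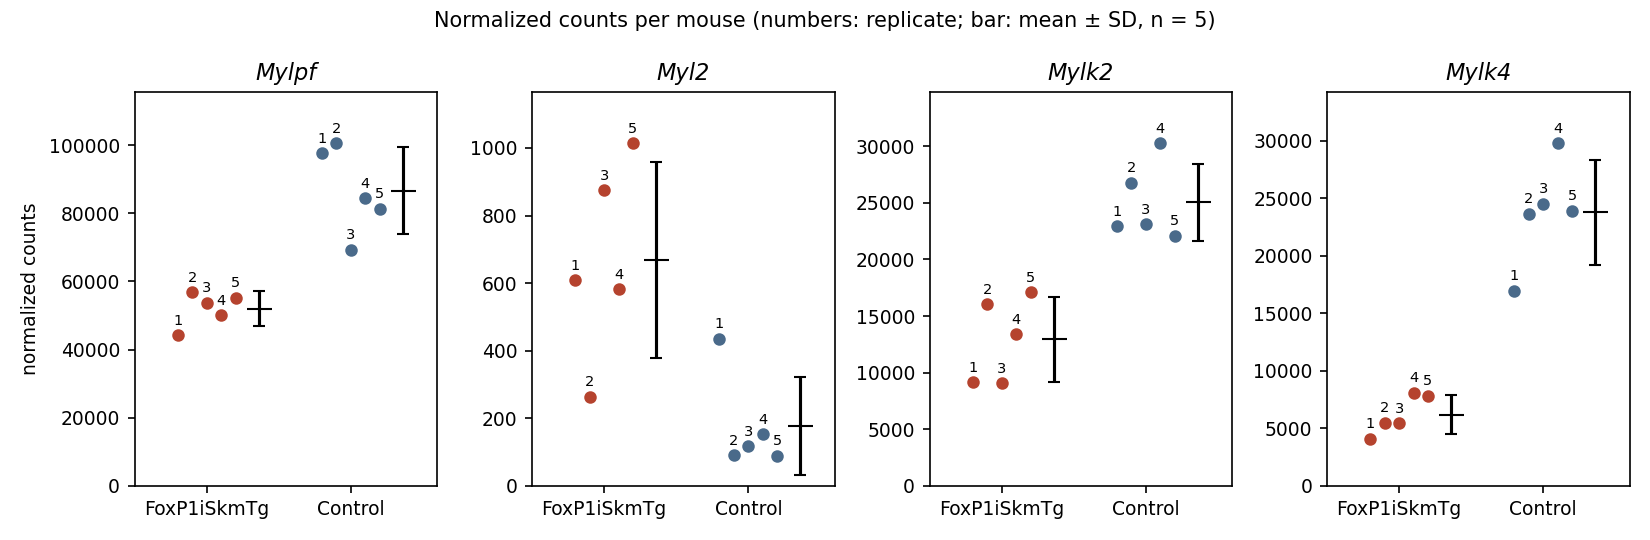
Normalized counts (y axis, linear from 0) of *Mylpf*, *Myl2*, *Mylk2* and *Mylk4* in each FoxP1iSkmTg mouse (left in each panel) and each Control mouse (right), with replicate numbers and the mean ± SD of 5 mice. The groups are apart for *Mylpf*, *Mylk2* and *Mylk4*, all lower in FoxP1iSkmTg muscle, and overlap for *Myl2*, where Control replicate 1 reached 435.

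Within each mouse, the *Mylpf* transcript remained far above that of *Myl2*. *Myl2* came to 0.705 ± 0.288% of the *Mylpf* level per length in FoxP1iSkmTg muscle, with a range of 0.252% to 1.0%, and to 0.108 ± 0.0779% in Control muscle, with a range of 0.0488% to 0.243% (SD of FPKM ratios, n = 5 each). The groups did not overlap on this scale, although FoxP1iSkmTg replicate 2 and Control replicate 1 were close, and without Control replicate 1 the Control mean was 0.0747%. The ratio depends on the gene lengths behind the FPKM values. With the lengths of the GENCODE transcripts shown above (662 bases for *Myl2* and 766 for *Mylpf*, against 1950 and 1062 in the files), it was 1.5 ± 0.613% in FoxP1iSkmTg and 0.230 ± 0.166% in Control muscle, 2.12-fold higher in both. *Myl2* averaged 19.4 ± 8.42 FPKM in FoxP1iSkmTg and 5.12 ± 4.25 FPKM in Control muscle.

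*Mylk2*, which encodes the calmodulin-dependent light chain kinase of skeletal muscle (ENSMUSG00000027470; mm10 chromosome 2, 152911352 to 152923068, plus strand), was also lower in FoxP1iSkmTg muscle. FoxP1iSkmTg replicates 1 to 5 had 9124, 16061, 9035, 13377 and 17109 normalized counts, against 22927, 26771, 23133, 30268 and 22095 in Control replicates 1 to 5. The lowest FoxP1iSkmTg values were those of replicates 1 and 3, and no FoxP1iSkmTg mouse reached the lowest Control mouse, which was 1.29-fold above the highest of them. FoxP1iSkmTg muscle averaged 12941 ± 3779 and Control muscle 25039 ± 3431 normalized counts (SD, n = 5 each), which is 51.7% of the Control level and a log2 fold change of -0.93 ± 0.18 (SE).

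*Mylk4*, a less studied member of the same kinase family (ENSMUSG00000044951; mm10 chromosome 13, 32700834 to 32783954, minus strand), was the lowest of the 4 relative to Control. Its normalized counts were 4079, 5474, 5452, 8089 and 7802 in FoxP1iSkmTg replicates 1 to 5, against 16951, 23633, 24517, 29753 and 23892 in Control replicates 1 to 5. The groups were far apart, with the lowest Control mouse 2.10-fold above the highest FoxP1iSkmTg mouse. The means were 6179 ± 1712 in FoxP1iSkmTg and 23749 ± 4552 in Control muscle (SD, n = 5 each), so 26.0% of the Control level remained, a log2 fold change of -1.92 ± 0.19 (SE). Among 2433 fitted protein-coding genes with a mean of at least 100 normalized counts, *Mylk4* had the 11th lowest log2 fold change, *Mylk2* the 72nd and *Mylpf* the 146th, and *Myl2* had the 12th highest.

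In all, 3 of the 4 genes had groups that did not overlap, all 3 lower in FoxP1iSkmTg muscle. Of the 3115 genes fitted, 42.2% had groups that did not overlap, 22.4% with FoxP1iSkmTg lower and 19.9% with FoxP1iSkmTg higher. Because the table lists only genes with an unadjusted p under 0.05 and the 4 genes were chosen from it, nothing is read from these shares.

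The 2 kinase transcripts were not lowered to the same degree. Per length, *Mylk2* averaged 248 ± 72.4 FPKM in FoxP1iSkmTg and 480 ± 66.0 FPKM in Control muscle, and *Mylk4* 45.4 ± 12.6 FPKM in FoxP1iSkmTg and 175 ± 33.6 FPKM in Control muscle. *Mylk4* therefore made up 15.7 ± 3.09% of the summed FPKM of both kinases in FoxP1iSkmTg muscle, with a range of 11.6% to 18.8%, and 26.6 ± 2.97% in Control muscle, with a range of 22.1% to 29.3% (SD, n = 5 each). No FoxP1iSkmTg mouse reached the share of any Control mouse. The 2 kinases together came to 293 ± 80.9 FPKM in FoxP1iSkmTg and 655 ± 92.7 FPKM in Control muscle. Relative to *Mylpf*, this was 10.5 ± 2.35% of its FPKM in FoxP1iSkmTg and 14.4 ± 2.87% in Control muscle, and these ranges overlapped.

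**Figure D2:**
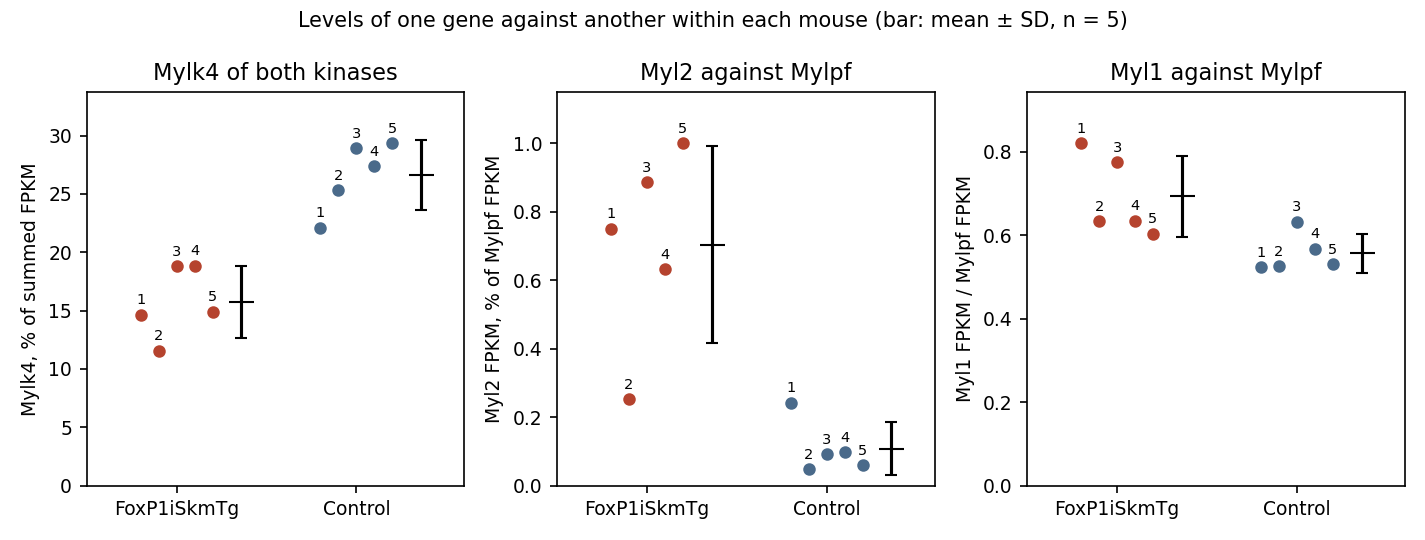
Level of one gene against another within each mouse, from FPKM, for FoxP1iSkmTg (left in each panel) and Control mice (right), with replicate numbers and the mean ± SD of 5 mice. The left panel gives *Mylk4* as a percentage of both kinases (15.7% in FoxP1iSkmTg, 26.6% in Control), the middle panel *Myl2* as a percentage of *Mylpf* (0.705% and 0.108%), and the right panel the *Myl1* to *Mylpf* ratio, where the groups overlap.

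FoxP1iSkmTg mice differed in how much *Foxp1* they carried, and the members did not all follow the same order over those mice. *Mylk2* was lowest in replicates 1 and 3, the mice with the most *Foxp1*, at 36.4% and 36.1% of the Control mean, while replicates 2, 4 and 5 had 64.1%, 53.4% and 68.3%. *Mylk4* was lowest in replicate 1, at 17.2% of the Control mean, and highest in replicates 4 and 5, at 34.1% and 32.9%. For *Mylpf* the 5 mice ran only from 50.9% to 65.6%, with replicate 3 at 62.0%, so no such order was seen. *Myl2* ran from 149% of the Control mean in replicate 2 to 574% in replicate 5, the mouse with the least *Foxp1*. Replicate 3, the mouse with the most *Foxp1*, had 495%, so *Myl2* showed no such order either. With 5 mice this is a description only.

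**Figure D3:**
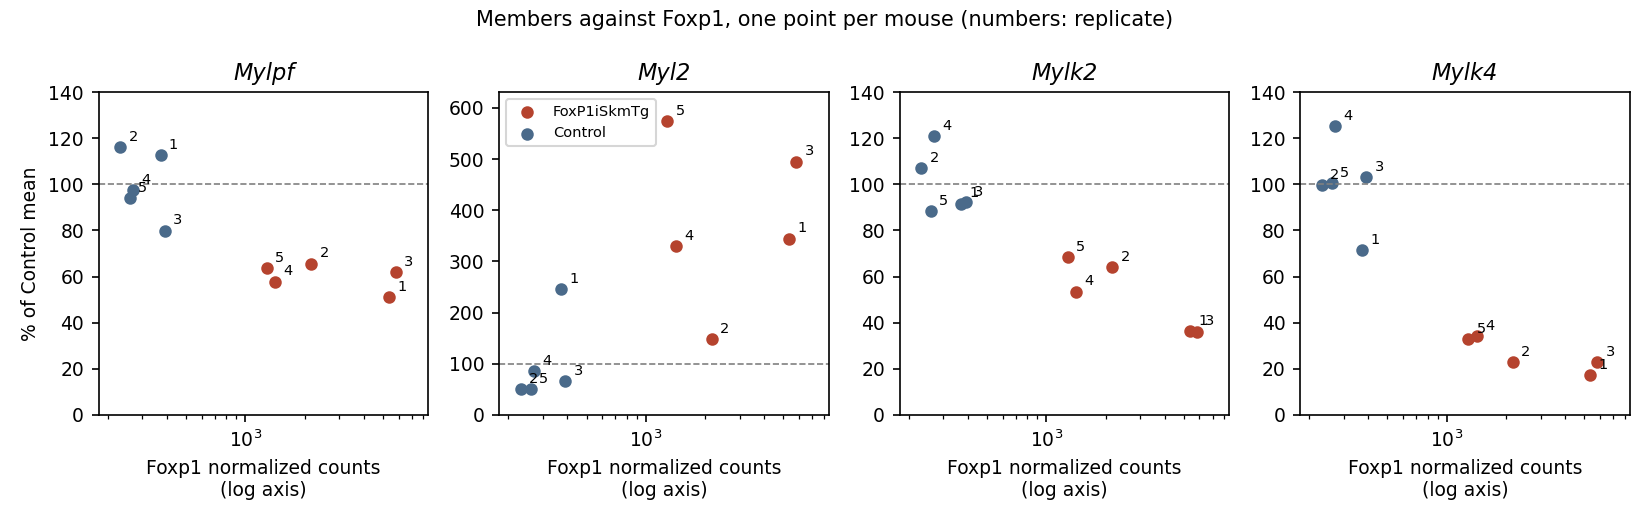
Normalized counts of each member as a percentage of its Control mean (y axis, dashed line at 100) against *Foxp1* normalized counts (x axis, log) in each FoxP1iSkmTg and Control mouse, with replicate numbers. Among FoxP1iSkmTg mice *Mylk2* is lowest in replicates 1 and 3, which carry the most *Foxp1*, whereas *Mylpf* stays within 50.9% to 65.6%; the y axis of *Myl2* has a wider scale.

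The promoters of *Mylpf* and *Mylk4* are shown because their RefSeq windows lie at the start of a transcript or of the gene, whereas the start sites of the 2 windows for *Myl2* lie 8227 and 7762 bases before the gene start in the files. No window for *Mylk2* was used here. The sequences are from RefSeq (GRCm38.p6) and run from 250 bases before to 50 bases after the start site. Searched on both strands were CANNTG, the E-box of muscle basic helix-loop-helix factors, its form CAGCTG, the MEF2 consensus and TGTTTAC, a forkhead core, and capitals mark matches to CAGCTG, the MEF2 consensus and TGTTTAC. *Mylpf* lies at chr7:127211358-127211657 on the plus strand, with a start site that is the first base of the GENCODE transcript shown above and lies 2718 bases inside the gene start in the files. *Mylk4* lies at chr13:32783915-32784214 on the minus strand, with a start site 10 bases from the gene start in the files and 2248 bases from the start of the GENCODE transcript compared above.
Mylpf: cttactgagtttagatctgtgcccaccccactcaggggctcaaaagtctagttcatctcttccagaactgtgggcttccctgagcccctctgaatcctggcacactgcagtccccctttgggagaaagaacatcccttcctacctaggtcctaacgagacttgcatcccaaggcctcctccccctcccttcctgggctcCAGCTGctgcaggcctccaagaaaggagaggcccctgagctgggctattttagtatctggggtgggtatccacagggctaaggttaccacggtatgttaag
Mylk4: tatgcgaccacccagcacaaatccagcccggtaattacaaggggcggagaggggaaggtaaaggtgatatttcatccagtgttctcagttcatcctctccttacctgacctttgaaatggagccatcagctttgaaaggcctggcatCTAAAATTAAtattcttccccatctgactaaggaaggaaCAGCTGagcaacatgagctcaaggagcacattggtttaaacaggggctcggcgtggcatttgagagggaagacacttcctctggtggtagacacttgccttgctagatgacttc
*Mylpf* held CAGCTG at position -51 relative to the start site, its only CANNTG. *Mylk4* held CAGCTG at -64 among 4 CANNTG matches, and CTAAAATTAA, a match to the MEF2 consensus, at -103. Of 32851 RefSeq promoter windows of the same length, 72.3% held CANNTG, 16.3% CAGCTG, 3.19% the MEF2 consensus and 3.65% TGTTTAC, which neither of these windows held. Both *Myl2* windows, which are not shown, also held CAGCTG, at 34 and at -130 relative to their own start sites. A match of letters is not a measured binding site.

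Other light chain genes were next examined. Of the 10 other light chain genes looked for, only *Myl1* was among the listed genes. *Myl1*, the essential light chain gene of fast fibres (mm10 chromosome 1, 66924295 to 66945404), had 70674, 70353, 81367, 62108 and 65104 normalized counts in FoxP1iSkmTg replicates 1 to 5, against 99839, 103330, 85598, 93667 and 84370 in Control replicates 1 to 5. It fell by 0.39 ± 0.08 (SE) on the log2 scale, with an adjusted p of 0.00966 by edgeR, and the nearest mice of the groups were only 1.04-fold apart. The authors adjusted over 15846 genes, and 3480 genes were listed. For comparison here and with every list below, 18.2% of the 3115 genes fitted were lower at an adjusted p under 0.05. Of the same genes, 22.2% were higher and 40.4% passed in either direction. This balance depended on the scaling, and with the authors' size factors more genes were lower (617) than higher (544). *Myl1* stood at 0.693 ± 0.097 of the *Mylpf* level per length in FoxP1iSkmTg and 0.556 ± 0.046 in Control muscle (SD, n = 5 each). A processed pseudogene, *Mylf-ps*, shares 99.3% of its 421 bases with the *Myl1* transcript, so reads could be split between them, and it had a log2 fold change of -0.39 that did not pass (adjusted p = 0.261 by edgeR). None of the 8 other kinases looked for, among them *Mylk*, *Mylk3*, *Rock1* and *Dapk3*, was listed.

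Genes for calmodulin, which activates myosin light chain kinase, and for other kinases that depend on it were examined in the same way. Of the 15 genes for calmodulin and its kinases 5 were listed, and 2 were lower. *Camk2g*, which encodes a subunit of calcium/calmodulin-dependent kinase II, fell by 0.34 ± 0.08 (adjusted p = 0.0274 by edgeR), a call that was lost without FoxP1iSkmTg replicate 1 or any one of Control replicates 1 to 4 (adjusted p = 0.0526 to 0.0673). *Camk2d*, another subunit gene of that kinase, had a log2 fold change of -0.23 ± 0.07 that did not pass (adjusted p = 0.0570 by edgeR). It passed by DESeq2 (adjusted p = 0.0146), and by edgeR with the authors' size factors (0.0360), with recovered totals alone (0.0352) and without FoxP1iSkmTg replicate 1 (0.0463). *Pnck*, at a log2 fold change of -0.52 ± 0.21, did not pass (adjusted p = 0.195 by edgeR). *Calm3*, a calmodulin gene, had a log2 fold change of -0.17 ± 0.06 that did not pass (adjusted p = 0.0977 by edgeR) but passed by DESeq2 (adjusted p = 0.0257).

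Of 10 genes of myosin light chain phosphatase and its inhibitors, 4 were listed and 2 were lower. *Ppp1cb*, the catalytic subunit, had 5452, 7275, 6491, 7114 and 6778 normalized counts in FoxP1iSkmTg replicates 1 to 5, against 9054, 9467, 9538, 9652 and 9176 in Control replicates 1 to 5. The groups did not overlap, and *Ppp1cb* fell by 0.48 ± 0.07 (SE) on the log2 scale (adjusted p = 0.00162 by edgeR). *Ppp1r14c*, an inhibitor of the phosphatase, fell by 0.58 ± 0.06 (adjusted p = 0.000148 by edgeR), also without overlap. The targeting subunit genes *Ppp1r12b*, at a log2 fold change of -0.13 (adjusted p = 0.212), and *Ppp1r12c*, at 0.28 (0.171), did not pass by edgeR, although *Ppp1r12c* passed without Control replicate 5 (0.0438). Phosphorylation of the light chains was not measured.

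**Figure D4:**
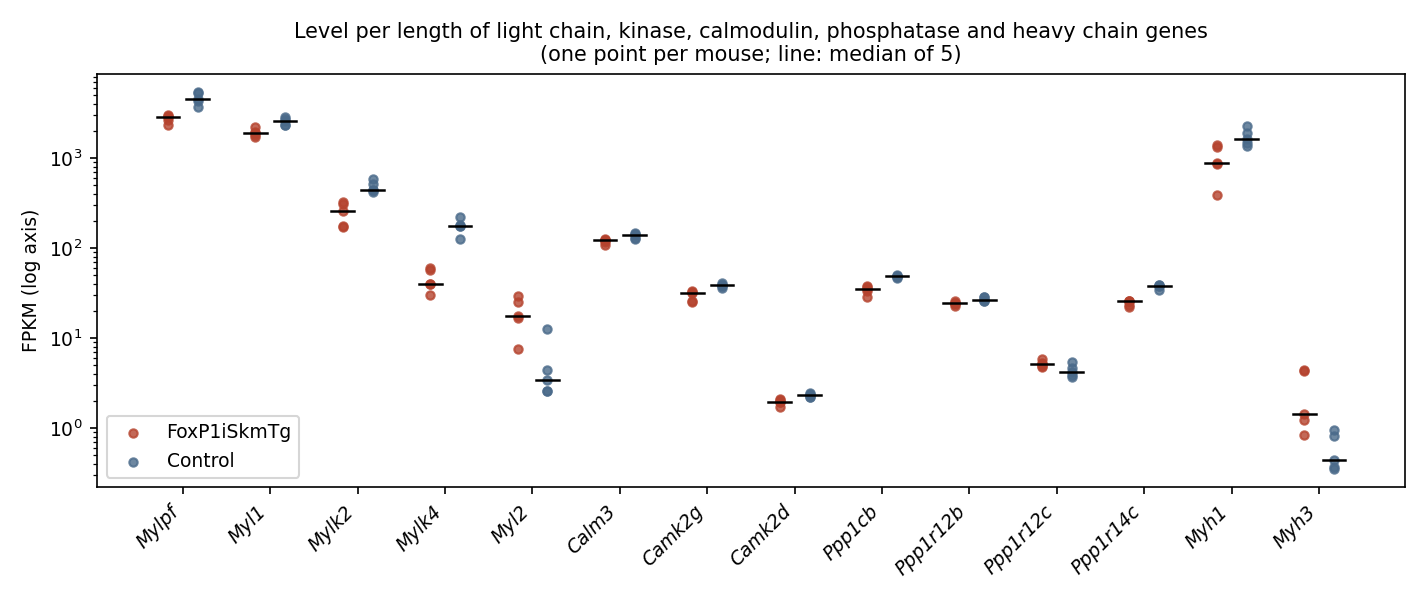
FPKM (y axis, log) of light chain, kinase, calmodulin, phosphatase and heavy chain genes, one point per mouse, FoxP1iSkmTg left of Control for each gene, with a line at the median of 5. *Mylpf* and *Myl1* lie at 1690 FPKM or above in every mouse, *Myl2* at 29.4 FPKM or below, and the FoxP1iSkmTg points of *Mylk4* lie below all of its Control points.

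Of 10 sarcomeric myosin heavy chain genes, which encode the partners of these light chains, 2 were listed. *Myh3*, the embryonic heavy chain gene, had 468, 132, 463, 89.4 and 152 normalized counts in FoxP1iSkmTg replicates 1 to 5, against 47.2, 87.9, 37.9, 102 and 39.1 in Control replicates 1 to 5. It was highest in FoxP1iSkmTg replicates 1 and 3, and FoxP1iSkmTg replicate 4 fell below Control replicate 4. *Myh3* rose by 2.09 ± 0.50 (SE) on the log2 scale (adjusted p = 0.0227 by edgeR), and this call was lost without FoxP1iSkmTg replicate 1 or Control replicate 1, 3 or 5 (adjusted p = 0.0540 to 0.0645). *Myh1*, the fast IIx heavy chain gene, had a log2 fold change of -0.80 ± 0.28 that did not pass (adjusted p = 0.108 by edgeR). *Myh7*, the slow heavy chain gene usually paired with *Myl2*, and *Myh4*, the IIb gene, were not among the listed genes and were not analysed here.

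Of 14 other genes of the thick filament 10 were listed, with 5 higher, 1 lower and 4 that did not pass. *Myom3*, a myomesin gene of the M-band, rose by 2.11 ± 0.20 (SE) on the log2 scale (adjusted p = 8.32e-05 by edgeR), and *Obsl1*, which encodes a cytoskeletal linker, by 1.45 ± 0.14 (8.13e-05). *Myom2* rose by 0.48 ± 0.09 (adjusted p = 0.00641 by edgeR) and *Smyd1*, which encodes a methyltransferase that acts in myosin assembly, by 0.28 ± 0.05 (0.00331). The 1 lower gene, *Ttn*, which encodes titin, fell by 0.31 ± 0.09 on the log2 scale (adjusted p = 0.0486 by edgeR), with overlapping groups. Its call was lost with the authors' size factors (0.0508) and without any one mouse other than FoxP1iSkmTg replicate 3 or Control replicate 5 (adjusted p = 0.0678 to 0.114). Of 13 other fast-fibre genes 7 were listed, and *Tpm1*, *Pvalb*, *Tnni2* and *Myl1* were lower, while *Tnnt3* and *Myh1* did not pass. This list overlaps those above: *Myl1*, *Myh1* and *Mybpc2* are counted there too, *Mybpc2* among the 5 higher thick filament genes. *Tpm1*, a tropomyosin gene, fell by 0.47 ± 0.08 (adjusted p = 0.00344 by edgeR), and *Pvalb*, the calcium buffer of fast fibres, by 0.47 ± 0.10 (0.0106). *Mybpc2*, the fast myosin-binding protein C gene, went the other way and rose by 0.43 ± 0.10 (adjusted p = 0.0188 by edgeR), a call that was lost without Control replicate 1, 2 or 3 (adjusted p = 0.0511 to 0.0549). Without Control replicate 1 or 2 the number of other fast-fibre genes that passed was 3 in place of 5.

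Of 21 other slow-fibre and cardiac-type genes 4 were listed, and all 4 were higher, beside 22.2% of all genes fitted. The rest of this list is unknown here, so no shared direction is read from these 4 genes. *Actc1*, the cardiac alpha-actin gene, rose by 3.21 ± 0.45 (SE) on the log2 scale (adjusted p = 0.00108 by edgeR), and *Csrp3*, which encodes muscle LIM protein, rose to 558% of its Control mean (0.00166). *Casq2*, the cardiac calsequestrin gene, rose by 0.66 ± 0.12 (adjusted p = 0.00682 by edgeR). *Ankrd2*, a stretch-responsive ankyrin gene, rose by 1.08 ± 0.26 (adjusted p = 0.0259 by edgeR), which was lost when any one of FoxP1iSkmTg replicates 1, 3 and 5 or Control replicates 2, 3 and 4 was left out (adjusted p = 0.0515 to 0.0711). The slow light chain *Myl3*, the slow troponins *Tnni1*, *Tnnt1* and *Tnnc1* and *Atp2a2* were not among the listed genes.

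Among 33 muscle transcription factor genes 13 were listed, with 4 higher, 5 lower and 4 that did not pass. The 4 higher genes were *Myog*, *Mef2d*, *Six2* and *Nfic*. Values are given for the 4 genes with the smallest adjusted p, which were all on the lower side. *Sox6*, which encodes a repressor of slow-fibre genes, fell by 0.55 ± 0.11 (SE) on the log2 scale (adjusted p = 0.00797 by edgeR). *Srf*, which encodes a factor of muscle actin genes, fell by 0.39 ± 0.07 (adjusted p = 0.0073 by edgeR). *Eya4*, which encodes a transcriptional cofactor of the muscle lineage, fell by 0.40 ± 0.08 (adjusted p = 0.0104) and *Myf6*, a myogenic factor gene, by 0.51 ± 0.11 (0.0114), both by edgeR. The number that passed was 5 in place of 9 when the authors' size factors were used, or without FoxP1iSkmTg replicate 2 or Control replicate 1 or 3.

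**Figure D5:**
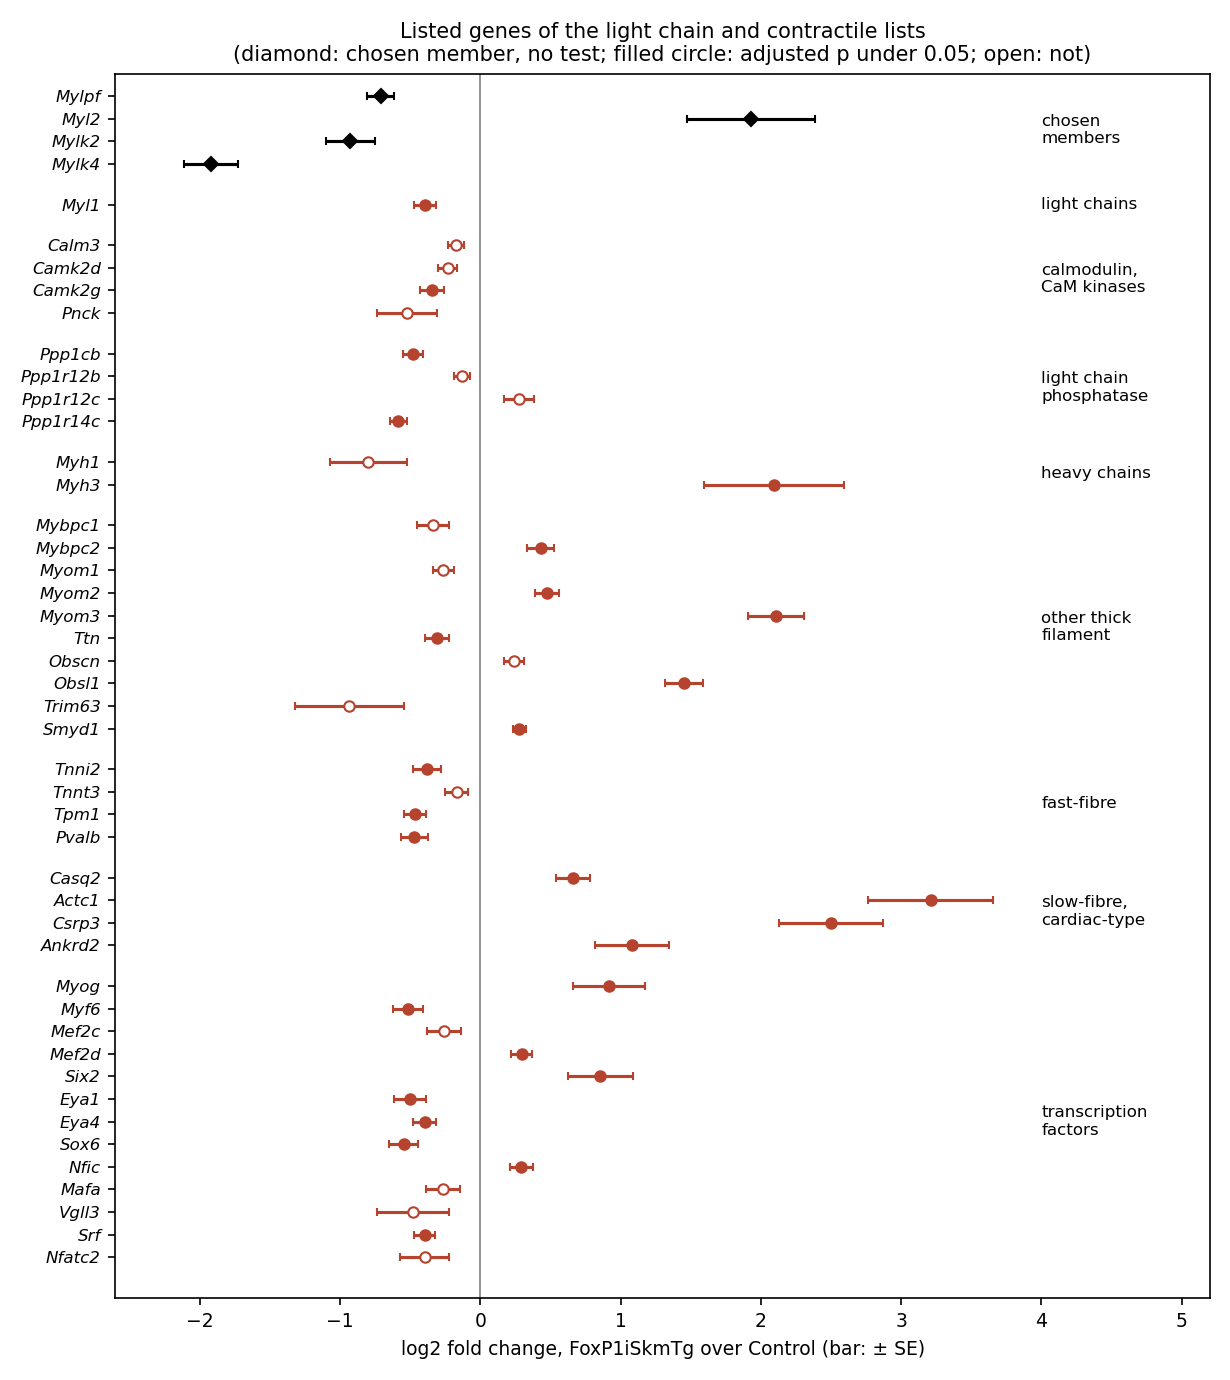
Log2 fold change of FoxP1iSkmTg over Control with its SE for the 4 members (diamonds, no test) and for other listed genes of the light chain and contractile lists (filled circles, adjusted p under 0.05 by edgeR, open circles, not). *Mylk4* lies furthest to the left at -1.92, and *Actc1* furthest to the right at 3.21.

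The genes most like each member were found by the mean absolute difference of log2(normalized count + 1) over the 10 mice, each gene centred on its own mean, among 2432 other genes. *Mylpf* was closest to *Pdlim7*, which encodes a PDZ and LIM domain protein, at 0.0737, followed by *Mlf1* at 0.0877 and the chromatin remodeller gene *Chd2* at 0.0953. *Mylk2* was closest to *Ankrd23*, at 0.0818, then to *Cd24a* at 0.0989 and *Pdzrn3* at 0.116. *Mylk4* was closest to *Tspan8*, at 0.185, then to *Art3* at 0.186 and *Klhl31* at 0.256. The nearest genes to *Myl2* were further off, *Myom3* at 0.511, the small heat shock protein gene *Hspb7* at 0.597 and *Car14* at 0.608. *Myom3* was also at its highest Control value in replicate 1, with 530 normalized counts against 251 to 339 in the other 4 Control mice. When each gene was centred within its own group, only 1 of these 12 genes was named again, so the likeness rests largely on the difference between the groups.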

How the data were processed

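RNA from 5 FoxP1iSkmTg and 5 Control muscles was sequenced as poly-A libraries. The authors deposited whole-number read counts per gene, FPKM values and a normalized signal, which is each count over its library's DESeq2 size factor. Also deposited by the authors were log2 fold changes, p-values and adjusted p-values of their own comparison, which were read only to find that every listed gene had a p under 0.05 (highest 0.04998) and that 15846 genes were adjusted over. Gene length was another deposited column. The submitters' processing notes name HISAT2 2.0.5, DESeq2 1.20.0 and mm10, whereas the study's methods name STAR and HTSeq, so the aligner is not settled. The sources used here do not give the strand setting.

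Listed counts summed to 6620970 to 8737660 per mouse. Library totals recovered from counts, lengths and FPKM were 15510420 to 21989419 and followed the size factors within -0.166% to 0.155%, so the authors may have scaled them. The study's methods name a least number of reads aimed at per sample, but the depth reached in each mouse is unknown.

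Counts were fitted with edgeR 4.0.16 (glmQLFit, glmQLFTest; R 4.3.3) on all 10 mice, with recovered totals scaled by TMM and low genes removed by filterByExpr (minimum count 10), leaving 3115 genes. The TMM factors and the dispersions came from these listed genes alone, which were selected by p in this same contrast. The balance of higher and lower genes therefore depends on the scaling. The tests were two-sided, with Benjamini-Hochberg adjustment over 15846 genes and a threshold of 0.05. The SE is the log2 fold change divided by the square root of F. The fit was tested on simulated data. Alternatives were DESeq2 1.42.0, the authors' size factors, recovered totals without TMM, other count filters, adjustment over listed genes alone, a replicate block, and leaving out each mouse.

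The 4 members and all 17 gene lists were chosen with earlier results of these data known. Named are *Foxp1*, the members, every listed gene of the light chain, kinase, calmodulin, phosphatase and heavy chain lists, up to 4 genes with the smallest adjusted p from each other list, and the 3 protein-coding genes most like each member, and 1 gene that meets these rules is not reported here. *Ckm*, *Acta1*, *Ttn*, *Tnnt3*, *Mylf-ps* and the genes named without values were added after their values were seen. Nothing in the labels says whether mice were littermates, and p-values measure the spread between these mice. Sequences came from RefSeq (GRCm38.p6) and GENCODE M21, whose gene coordinates equal those in the files, and 3 of the 4 members had a RefSeq promoter entry.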

Additional observations from a re-analysis of the deposited data

Results flagged for a closer look

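In Control replicate 1 *Myl2* stood at 435 normalized counts, far above the next Control mouse at 152. The *Myl2* to *Mylpf* ratio of the same mouse, 0.243%, was likewise far above the next at 0.0981%, and it rests on the same *Myl2* value. *Myom2* in FoxP1iSkmTg replicate 4 was low, at 40243 normalized counts, with the next FoxP1iSkmTg mouse at 46524. These were 3 of 92 groups of 5 mice examined, where chance flags about 1 in 20, or 4.6 groups.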

How the results depend on the processing

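No direction of a member or of *Foxp1* was reversed under any alternative run. The members were chosen because they differed in this contrast, so a kept direction is no support for them. Leaving out 1 mouse, the log2 fold change ranged over 3.11 to 3.62 for *Foxp1*, -0.78 to -0.66 for *Mylpf*, 1.74 to 2.59 for *Myl2*, -1.05 to -0.82 for *Mylk2* and -2.04 to -1.80 for *Mylk4*. The *Mylk4* share ranged over 15.0% to 16.8% in FoxP1iSkmTg and 25.9% to 27.7% in Control, and the *Myl2* to *Mylpf* ratio over 0.631% to 0.818% and 0.0747% to 0.123%. Genes that passed ranged over 883 to 1299, with 451 to 702 higher (451 without Control replicate 2) and 431 to 597 lower. By list the genes that passed ranged over 1 to 2 for calmodulin, 2 to 3 for phosphatase, 0 to 1 for heavy chains, 4 to 7 for other thick filament genes, 3 to 5 for fast-fibre genes, 3 to 4 for slow-fibre genes and 5 to 8 for transcription factors.

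Adjustment over the listed genes alone, which is too lenient for a list selected by p, passed 2799 genes (1538 higher, 1261 lower), with 5 for calmodulin, 4 for phosphatase, 2 for heavy chains and 10 for other thick filament genes. DESeq2 passed 4 calmodulin genes. With the authors' size factors, or with recovered totals alone, 5 transcription factors passed. The authors' size factors gave 544 higher and 617 lower genes, 46.9% higher in place of 55.0%. The cause of these shifts was not tested. With GENCODE transcript lengths in place of the deposited gene lengths, chosen after seeing the data, the *Mylk4* share was 20.5% in FoxP1iSkmTg and 33.3% in Control, and the *Myl2* to *Mylpf* ratio 1.5% and 0.230%.

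The replicate numbers did not pair the mice (correlations of -0.0154 to 0.0874 between same-numbered mice, 1 of 5 best with its own number). With the number as a block 960 genes passed, and the calls of *Myh3* (adjusted p = 0.0895), *Mybpc2* (0.0738) and *Ttn* (0.0540) were lost by edgeR while *Myh1* passed (0.0307). The table lists only genes with a low p, so genes not listed are unknown here rather than unchanged. The unknown depth of each mouse and 5 mice a group limit precision.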
